A study of Mus musculus with 4 samples.

Results

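Transcripts of the nuclear-encoded subunits of respiratory complex III, complex IV and ATP synthase, with cytochrome c, were followed in natural killer T (NKT) cells stimulated through their antigen receptor or kept resting. The members are all gene symbols of the deposited count table that begin with Uqcr, Cox4 to Cox8 or Atp5, together with Cyc1 and Cycs. This gave 38 of the 12021 genes listed, and all 38 passed the filter on low counts. Of these, 9 encode subunits of complex III, 10 of complex IV and 15 of ATP synthase. Cycs encodes cytochrome c, and Cox7a2l encodes SCAF1, a relative of a complex IV subunit that joins complexes III and IV. The symbols of Atp5s and Atp5sl match the pattern, but their products are not structural subunits of ATP synthase, so 36 genes are counted as subunits or cytochrome c.

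The groups were NKT cells kept on plates coated with mouse CD1d tetramers that carry the lipid PBS57, against NKT cells kept resting, with 2 libraries in each group. All cells came from C57BL/6 mice of 10 to 12 weeks with the genotype Va14 Tg.cxcr6gfp/+, which carry a transgenic Vα14 receptor chain and GFP at 1 allele of Cxcr6, and were sorted by a high GFP signal. Both groups therefore share the transgene, the altered Cxcr6 allele and a gate on GFP. Liver is the labelled tissue, whereas the protocols mention livers or spleens for the sort and islets for the RNA extraction. The question, from the study's design, is which transcripts differ before and after stimulation. Columns of the table are numbered 4 and 5 within each group, and libraries are called by these numbers.

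Library totals lay between 5398551 and 5495521 counts in the tetramer libraries and between 4168438 and 4433048 in the resting libraries. Levels are CPM, counts scaled to a common library size, with library sizes adjusted by TMM factors. Whether libraries of 1 group stem from different animals is not stated in the labels. The p-values therefore reflect only how far these 4 libraries scatter, which may be technical scatter. T cell genes were present in every library: 9 of 12 NKT and T cell markers were listed, with summed levels of 2572 to 3499 CPM in tetramer libraries and 3364 to 3569 CPM in resting libraries. Of these 9, 0 were called higher and 2 lower by edgeR, against 14.3% and 12.1% of all genes tested. At an unadjusted p below 0.05, a threshold not counted over all genes, 2 markers were higher and 2 lower. Klrb1c, the gene of the NK1.1 receptor, had 2.86 and 13.6 CPM in tetramer libraries, against 114 and 174 CPM in resting libraries (log2 fold change -4.13 ± 0.52 SE, adjusted p = 2.91e-06). Cxcr6, the locus of the GFP used for the gate, had 414 and 718 CPM in tetramer libraries, against 1617 and 1102 CPM in resting libraries (-1.26 ± 0.40, adjusted p = 0.0190). Zbtb16, the transcription factor that defines the lineage, had 81.0 and 152 CPM in tetramer libraries, against 55.7 and 64.3 CPM in resting libraries (0.96 ± 0.39, adjusted p = 0.0687). All 5 erythroid markers were listed, at summed levels of 35.8 and 80.7 CPM in tetramer libraries and 146 and 410 CPM in resting libraries. Of 7 islet markers 6 were listed, Ins1, Ins2 and Gcg among them, at 235 and 426 CPM in tetramer libraries and 265 and 978 CPM in resting libraries. Of 7 B cell markers 5 were listed, at 26.6 to 32.8 CPM in tetramer libraries and 48.3 to 71.4 CPM in resting libraries. Of 10 macrophage markers 3 were listed, at 8.18 to 9.71 CPM in tetramer libraries and 20.3 to 25.6 CPM in resting libraries. Of 8 hepatocyte markers 2 were listed, at 8.18 to 11.5 CPM in tetramer libraries and 24.9 to 37.2 CPM in resting libraries. Dendritic cell (3 of 5 listed), neutrophil (2 of 6) and endothelial (1 of 5) markers summed to 72.8 and 259, 1.84 and 3.24, and 10.2 and 15.8 CPM in tetramer libraries, against 261 and 263, 19.5 and 18.0, and 75.0 and 28.8 CPM in resting libraries. The part of these cells in the results below was not tested, and in bulk samples fewer cells of a type and less RNA per cell cannot be told apart.

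Complex III takes electrons from ubiquinol and hands them through its Rieske protein and cytochrome c1 to cytochrome c, a small soluble haem protein. Complex IV, cytochrome c oxidase, passes these electrons to oxygen, and both complexes pump protons across the inner mitochondrial membrane. ATP synthase lets the protons flow back through a rotating ring of c subunits and uses the rotation to make ATP. The catalytic centres of complex IV and the cytochrome b of complex III are encoded in mitochondrial DNA and are not analysed here. T cells enlarge their mitochondrial mass when they leave quiescence, and nuclear genes for these complexes are known targets of the factors NRF1 and GABPA, an ETS family protein.

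Most of these transcripts were higher after stimulation. Of the 38 members, 24 rose and 2 fell, Cox7a2l and Atp5sl, in edgeR's quasi-likelihood test (adjusted p below 0.05), where the background over all 11312 genes tested was 14.3% higher and 12.1% lower. The 24 that rose were all subunits or cytochrome c, between 1.997-fold (Atp5a1) and 4.77-fold (Cycs). The median log2 fold change of the 36 subunits and cytochrome c was 1.25, against -0.06 for all genes tested, and 35 of the 36 had a positive value. Their summed level was 17123 and 14097 CPM in tetramer libraries 4 and 5, against 7176 and 8974 CPM in resting libraries 4 and 5. Both tetramer libraries lay above both resting libraries in this sum and for 30 of the 36 genes, where 31.6% of all genes tested lay so. With library totals in place of TMM factors the median of all genes moved to -0.35 and that of the 36 genes to 0.96, and over all genes tested 1193 were called higher and 2250 lower, against 1620 and 1366 with TMM factors. Uqcrh, Cox4i1, Cox7c, Atp5d and Atp5j overlapped between the groups, and Cox7a2l was lower in both tetramer libraries, as 33.7% of all genes tested were.

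**Figure D1:**
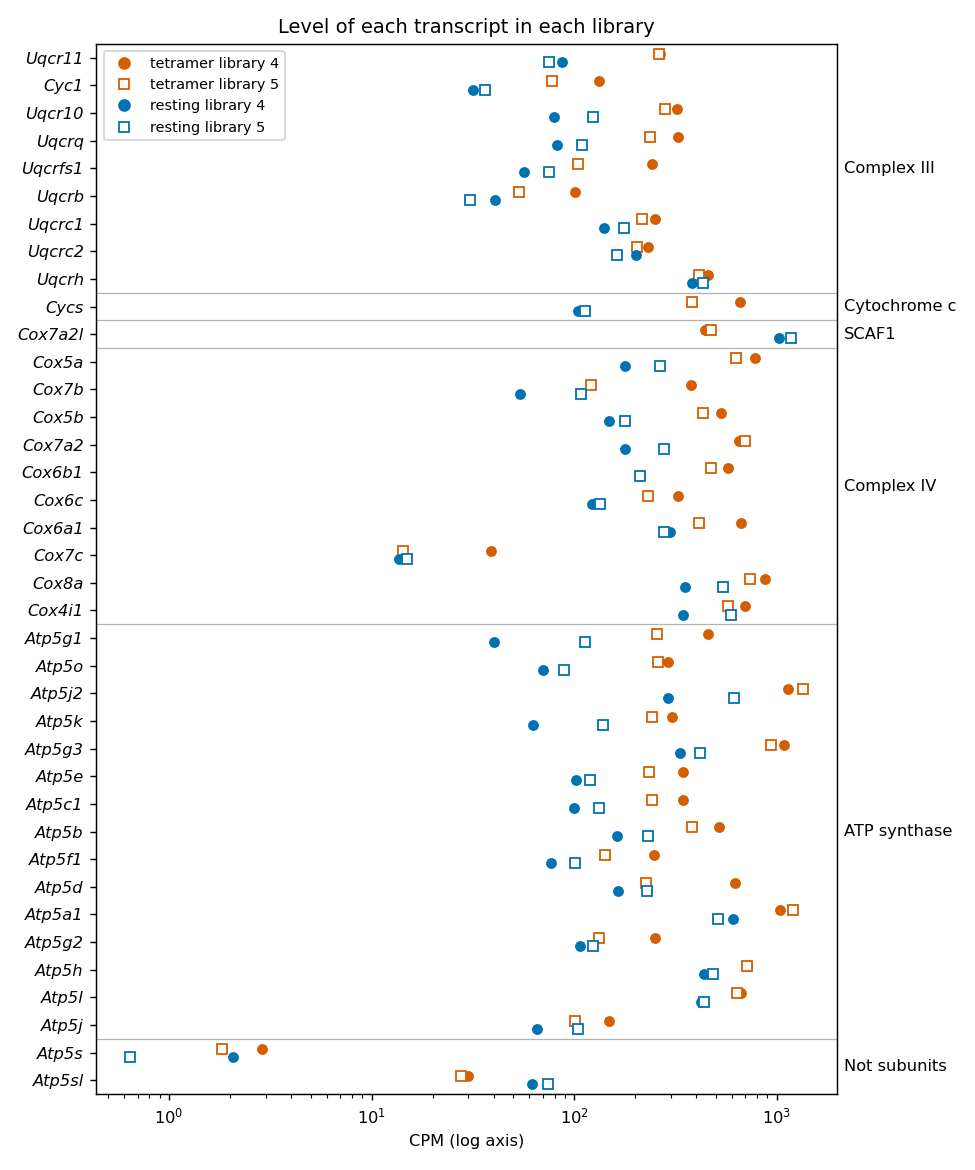
Level in CPM on a log axis of each of the 38 transcripts, ordered within each complex by fold change, in tetramer libraries (orange) and resting libraries (blue). Filled circles are library 4 and open squares library 5 of each group. Cycs lies at 382 and 659 CPM in tetramer libraries and 105 and 113 CPM in resting libraries, and Cox7a2l lies the other way round.

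The number of calls depended most on tetramer library 4. Without it, 9 of the 38 members rose and 0 fell (the lone tetramer library was taken to scatter like the resting libraries), where 5.33% of all genes tested rose and 2.68% fell. These 9 were among the 26 called with all libraries. The median of the 36 genes was then 0.92, and 35 had a positive log2 fold change. Levels were higher in tetramer library 4 than in tetramer library 5 for 31 of the 36 genes, with a median log2 difference of 0.33, against 0.00 for all genes tested. The 2 resting libraries were also ordered: 5 of the 36 genes were higher in resting library 4 than in resting library 5, with a median log2 difference of -0.33, against -0.02 for all genes tested. Without resting library 4, 16 members rose, and without tetramer library 5 or resting library 5, 23 and 22 rose. No member was called lower without tetramer library 4, tetramer library 5 or resting library 5. A member past no threshold is not shown to be unchanged.

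**Figure D2:**
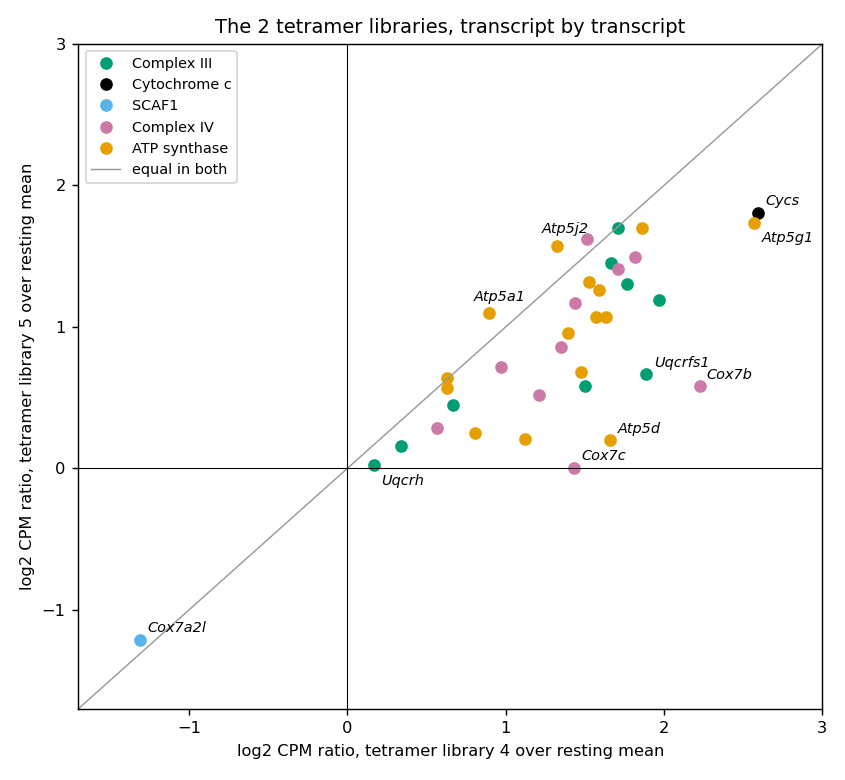
Log2 ratio of the CPM of tetramer library 4 (x axis) and of tetramer library 5 (y axis) to the mean CPM of the 2 resting libraries, for the 36 subunit and cytochrome c genes. Points below the grey line were higher in tetramer library 4, which 31 of 36 were, and Cox7c, Cox7b and Atp5d lie farthest below it.

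Promoters were compared because the members moved together. RefSeq windows of 300 bases around gene starts, on GRCm38.p6, were matched by symbol or synonym for 31 of the 38 members, 29 of them subunits or cytochrome c. They were searched on both strands for the ETS core CCGGAAG, the NRF1 core and the E-box CACGTG that Myc and related factors bind, and no matches of different motifs overlapped. The ETS core was found for 10 of the 29 genes, against 9.93% of all 27025 genes with a window. These 27025 include genes that were not tested here, whereas all 29 passed the filter on low counts. The NRF1 core was found for 4 of 29 (Atp5k, Atp5g2, Cox6a1 and Uqcrc1), against 1.07%, and the E-box for 4 of 29 (Atp5g1, Atp5g3, Atp5f1 and Atp5l), against 8.09%. Of the genes with a window, the ETS core was held by 4 of 19 that rose (Uqcr11, Atp5e, Atp5k and Cox6b1) and by 6 of 9 past no threshold (Uqcrh, Cox6a1, Cox8a, Atp5h, Atp5j and Atp5l). The E-box was held by 3 of these 19 and 1 of these 9, and the NRF1 core by 1 of these 19 and 3 of these 9. A match is a description of the letters and not a shown binding site. The windows below belong to the 4 risen members with the smallest adjusted p among those that hold a motif. They are read 5′ to 3′ on the strand of the gene, and capitals mark the E-box in Atp5g1 (chr11:96075582-96075881, minus strand) and Atp5g3 (chr2:73911277-73911576, minus strand) and the ETS core, on either strand, in Uqcr11 (chr10:80406772-80407071, minus strand) and Atp5e (chr2:174464052-174464351, minus strand).
Atp5g1: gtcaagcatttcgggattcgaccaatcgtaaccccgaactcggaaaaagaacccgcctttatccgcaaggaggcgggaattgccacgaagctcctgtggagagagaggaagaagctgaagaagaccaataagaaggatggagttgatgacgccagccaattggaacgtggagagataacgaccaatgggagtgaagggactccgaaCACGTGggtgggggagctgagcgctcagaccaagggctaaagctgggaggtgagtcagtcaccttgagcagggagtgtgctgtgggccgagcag
Atp5g3: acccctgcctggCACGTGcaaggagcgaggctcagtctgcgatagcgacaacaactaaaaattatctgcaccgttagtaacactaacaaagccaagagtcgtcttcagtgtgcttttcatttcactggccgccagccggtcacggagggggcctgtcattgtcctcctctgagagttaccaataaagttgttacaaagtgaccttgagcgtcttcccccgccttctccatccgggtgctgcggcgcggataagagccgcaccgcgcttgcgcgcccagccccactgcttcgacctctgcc
Uqcr11: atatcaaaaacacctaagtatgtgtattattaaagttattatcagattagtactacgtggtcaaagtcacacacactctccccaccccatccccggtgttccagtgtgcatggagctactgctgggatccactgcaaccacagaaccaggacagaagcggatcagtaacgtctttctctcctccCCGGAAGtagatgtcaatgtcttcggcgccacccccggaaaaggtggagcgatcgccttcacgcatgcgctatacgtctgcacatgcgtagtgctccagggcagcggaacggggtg
Atp5e: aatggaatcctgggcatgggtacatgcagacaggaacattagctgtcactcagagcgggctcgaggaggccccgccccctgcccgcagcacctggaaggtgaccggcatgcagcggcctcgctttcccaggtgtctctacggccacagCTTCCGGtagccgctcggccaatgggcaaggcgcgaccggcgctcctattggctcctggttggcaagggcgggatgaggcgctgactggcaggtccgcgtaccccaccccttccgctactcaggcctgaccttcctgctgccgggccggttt

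Complex III rose in 6 of its 9 nuclear subunits and fell in 0, with a median log2 fold change of 1.40. The risen members included both redox subunits and most small subunits, while the core proteins and the hinge protein passed no threshold. Cyc1, cytochrome c1, had 133 and 77.5 CPM in tetramer libraries 4 and 5, against 31.5 and 36.3 CPM in resting libraries 4 and 5 (log2 fold change 1.63 ± 0.40 SE, adjusted p = 0.00398). The groups did not overlap, and tetramer library 4 was the higher of its pair. Uqcrfs1, the Rieske iron-sulfur protein, had 243 and 104 CPM in tetramer libraries, against 56.6 and 74.8 CPM in resting libraries (1.40 ± 0.40, adjusted p = 0.0118). Without tetramer library 4 neither was called, at 1.21 (adjusted p = 0.170) for Cyc1 and 0.68 (adjusted p = 0.481) for Uqcrfs1.

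Among the small subunits, Uqcr11 had 265 and 263 CPM in tetramer libraries, against 86.8 and 75.4 CPM in resting libraries (1.70 ± 0.37, adjusted p = 0.00130). The tetramer libraries agreed closely for this gene, whose call held in all 12 alternatives tried. Uqcr10 had 324 and 280 CPM in tetramer libraries, against 79.8 and 124 CPM in resting libraries (1.56 ± 0.38, adjusted p = 0.00334), and its call held in all 12 as well. Uqcrq had 325 and 236 CPM in tetramer libraries, against 82.0 and 109 CPM in resting libraries (1.55 ± 0.37, adjusted p = 0.00339), a call lost without tetramer library 4 (1.32, adjusted p = 0.0759). Uqcrb, which lies near the ubiquinone site, rose by a narrow margin (1.11 ± 0.42, adjusted p = 0.0467), lost without tetramer library 4 (0.60, adjusted p = 0.593) or resting library 5 (0.95, adjusted p = 0.139), with library totals (0.80, adjusted p = 0.148), limma-voom (adjusted p = 0.0673) or no filter (adjusted p = 0.0501), and against a fold of 1.5 (adjusted p = 0.136). In GENCODE transcripts, 51.0% of its 36-base stretches also occur in annotated pseudogenes, so its reads may be shared.

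The remaining subunits of complex III passed no threshold. Uqcrh, the acidic hinge protein that contacts cytochrome c1, had 457 and 414 CPM in tetramer libraries, against 380 and 435 CPM in resting libraries (0.10 ± 0.36, adjusted p = 0.870). Its groups overlapped. Uqcrc2 and Uqcrc1, the core proteins related to mitochondrial processing peptidases, had log2 fold changes of 0.25 ± 0.36 (adjusted p = 0.636) and 0.56 ± 0.36 (adjusted p = 0.254). With library totals in place of TMM factors, Uqcrh and Uqcrc2 turned to -0.20 and -0.051, neither past the threshold. The log2 ratio of Uqcr11 to Uqcrh, the members of the complex with the largest and the smallest change, was -0.79 and -0.65 in tetramer libraries, against -2.13 and -2.53 in resting libraries; this pair was chosen after the values were seen, and its ratio had to differ.

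Cycs, somatic cytochrome c, links complexes III and IV and, once released from mitochondria, triggers the apoptosome. It had the largest log2 fold change of the 38 members by a narrow margin over Atp5g1 (2.25 against 2.21), which was the larger with limma-voom (2.34 for Atp5g1 against 2.20) and without resting library 5 (3.17 against 2.34). Cycs had 659 and 382 CPM in tetramer libraries 4 and 5, against 105 and 113 CPM in resting libraries 4 and 5 (2.25 ± 0.39, adjusted p = 0.000130). The groups did not overlap, and the call held in all 12 alternatives, with log2 fold changes of 1.82 to 2.60 when single libraries were left out. Of its 36-base stretches 31.0% occur in other annotated genes, and 9.78% in 21 annotated pseudogenes. In the list of cytochrome c maturation and apoptosome genes 4 of 10 rose and 0 fell, against 14.3% and 12.1% of all genes tested. Bcl2l1, whose product Bcl-xL holds cytochrome c inside mitochondria, rose by 3.56 ± 0.44 on the log2 scale (adjusted p = 2.17e-06). Bak1, which opens the outer membrane, rose by 1.41 ± 0.38 (adjusted p = 0.00740), a call lost without tetramer library 5 (1.22, adjusted p = 0.0964). Hccs, the haem lyase that makes cytochrome c and c1, had 6.34 and 6.88 CPM in tetramer libraries, against 2.49 and 1.28 CPM in resting libraries, and missed the threshold (1.79 ± 0.68, adjusted p = 0.0521). Hccs and the apoptosome genes Apaf1 and Casp9 (adjusted p = 0.854 and 0.550) were named after their values were seen.

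**Figure D3:**
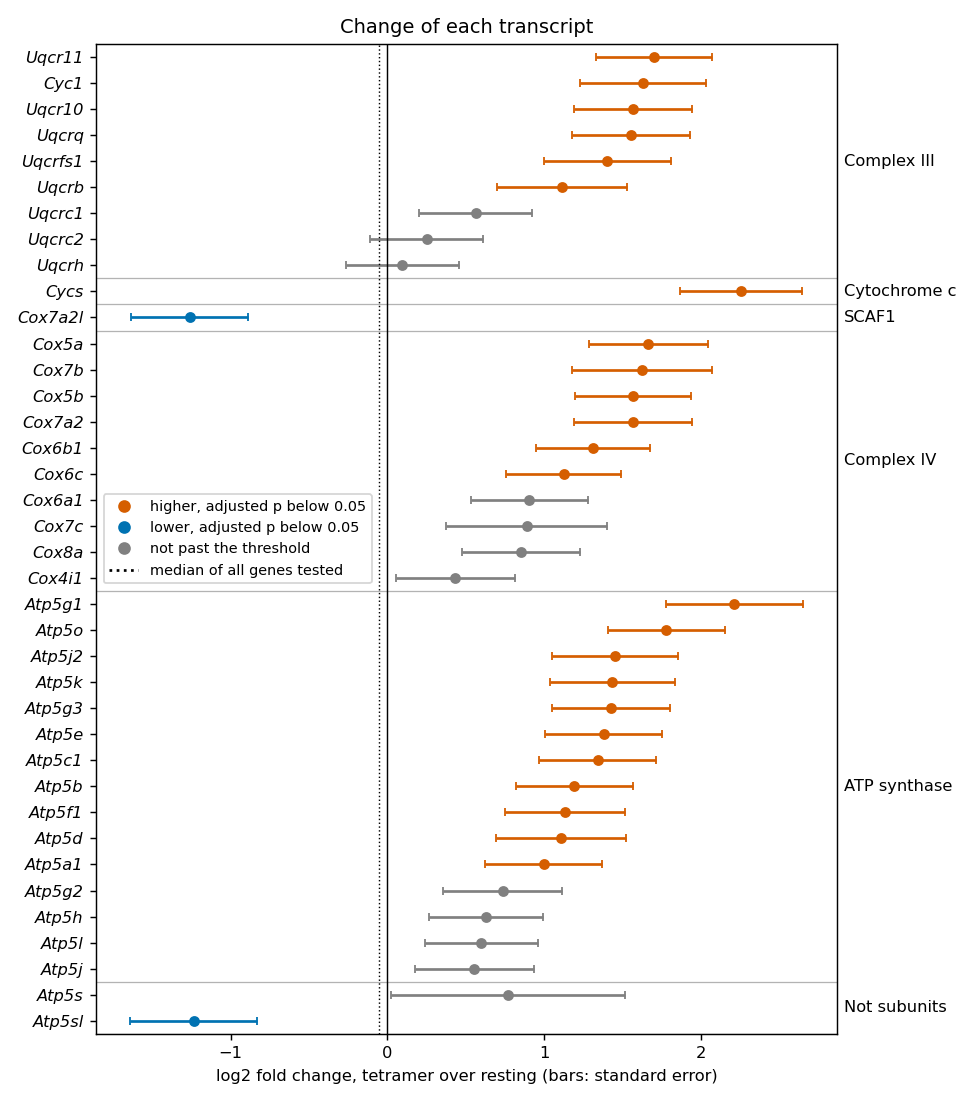
The edgeR log2 fold change, tetramer over resting, is plotted for the 38 transcripts with its standard error. The 24 that rose are orange, the 2 that fell are blue and the 12 past no threshold are grey, and the dotted line is the median of all genes tested at -0.06.

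Complex IV rose in 6 of its 10 nuclear subunits and fell in 0, with a median log2 fold change of 1.22. Cox5a and Cox5b, subunits on the matrix side of the complex, rose together. Cox5a had 784 and 627 CPM in tetramer libraries 4 and 5, against 179 and 266 CPM in resting libraries 4 and 5 (1.66 ± 0.38, adjusted p = 0.00216). Cox5b had 534 and 434 CPM in tetramer libraries, against 148 and 178 CPM in resting libraries (1.57 ± 0.37, adjusted p = 0.00283). Neither gene overlapped between groups, and both calls held in all 12 alternatives. Shared sequence is a caution for both, since 42.6% of the 36-base stretches of Cox5a and 26.5% of those of Cox5b occur in other annotated genes.

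Cox7b, a small membrane subunit, had 379 and 121 CPM in tetramer libraries, against 53.9 and 108 CPM in resting libraries (1.63 ± 0.45, adjusted p = 0.00868). Tetramer library 5 lay close to resting library 5, and without tetramer library 4 the log2 fold change was 0.60 (adjusted p = 0.539). Cox6b1, which faces the intermembrane space, had 574 and 477 CPM in tetramer libraries, against 211 and 212 CPM in resting libraries (1.31 ± 0.37, adjusted p = 0.00945), a call lost without tetramer library 4 (1.19, adjusted p = 0.120). Cox6c rose by 1.12 ± 0.37 (adjusted p = 0.0245), lost without tetramer library 4 (0.87, adjusted p = 0.302) or resting library 4 (1.07, adjusted p = 0.0886), with library totals (0.83, adjusted p = 0.0919) and against a fold of 1.5 (adjusted p = 0.101).

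Past no threshold were Cox6a1, Cox8a, Cox7c and Cox4i1. Cox6a1, the liver isoform of subunit 6a, had 665 and 412 CPM in tetramer libraries, against 296 and 279 CPM in resting libraries (0.90 ± 0.37, adjusted p = 0.0725). Cox8a had 878 and 737 CPM in tetramer libraries, against 354 and 541 CPM in resting libraries (0.85 ± 0.38, adjusted p = 0.0917). Neither overlapped between the groups. Cox4i1, the ubiquitous isoform of the large regulatory subunit that joins the assembly early, had 697 and 574 CPM in tetramer libraries, against 345 and 595 CPM in resting libraries (0.43 ± 0.38, adjusted p = 0.416). Its groups overlapped, and part of its sequence (14.3% of 36-base stretches) is shared with Emc8. Cox7c had 38.7 and 14.4 CPM in tetramer libraries, against 13.7 and 14.96 CPM in resting libraries (0.89 ± 0.51, adjusted p = 0.202). The log2 ratio of Cox5a to Cox4i1, chosen after the values were seen as the largest and the smallest change of the complex, was 0.17 and 0.13 in tetramer libraries, against -0.95 and -1.16 in resting libraries. Ndufa4, whose product was once counted in complex I and is now placed in complex IV, is outside the symbol pattern and was named after its values were seen. It had 255 and 103 CPM in tetramer libraries, against 59.9 and 63.3 CPM in resting libraries (1.54 ± 0.41, adjusted p = 0.00671).

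Cox7a2 and Cox7a2l, related genes, moved in opposite directions. Cox7a2, the liver isoform of subunit 7a, had 650 and 699 CPM in tetramer libraries 4 and 5, against 178 and 277 CPM in resting libraries 4 and 5 (1.57 ± 0.38, adjusted p = 0.00339), a call that held in all 12 alternatives. Cox7a2l, whose product SCAF1 carries a subunit 7a domain and tethers complex IV to complex III, had 443 and 475 CPM in tetramer libraries, against 1023 and 1176 CPM in resting libraries (-1.26 ± 0.37, adjusted p = 0.0136). The groups did not overlap for either gene, and resting library 5 was above resting library 4 for Cox7a2. C57BL/6 mice, the strain used here, are known to carry a short form of SCAF1 that joins complex IV poorly. Cox7a2l made up 40.6% (95% interval 39.2 to 41.9) and 40.4% (39.2 to 41.7) of the counts of the pair in tetramer libraries, against 85.2% (84.2 to 86.1) and 81.0% (79.996 to 81.9) in resting libraries, by exact Clopper-Pearson intervals that cover counting error only. The log2 ratio of Cox7a2 to Cox7a2l was 0.56 ± 0.0048 in tetramer libraries and -2.30 ± 0.31 in resting libraries (SD, n = 2 each; exact two-sided permutation p = 0.333, the smallest that 2 against 2 libraries can give). The fall of Cox7a2l was not called without tetramer library 4 (-1.19, adjusted p = 0.180), tetramer library 5 (-1.30, adjusted p = 0.0913) or resting library 5 (-1.13, adjusted p = 0.0537), nor against a fold of 1.5 (adjusted p = 0.0607), and 20.2% of its 36-base stretches occur in an annotated pseudogene.

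**Figure D4:**
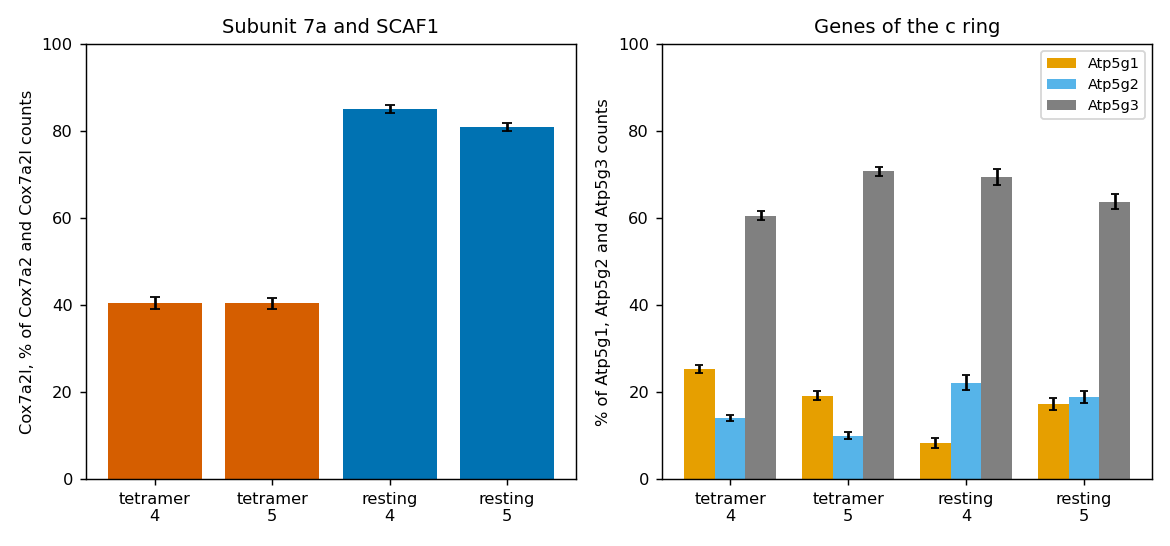
Left, Cox7a2l as a percentage of the counts of Cox7a2 and Cox7a2l in each library, 40.4% to 40.6% in tetramer libraries (orange) and 81.0% to 85.2% in resting libraries (blue). Right, Atp5g1, Atp5g2 and Atp5g3 as percentages of their summed counts in each library. Bars start at 0 and whiskers are exact 95% intervals for counting error.

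ATP synthase rose in 11 of its 15 listed subunits and fell in 0, with a median log2 fold change of 1.19. All 5 subunits of the soluble F1 head rose with all libraries and TMM factors, though 3 of them not with library totals: Atp5e (1.38 ± 0.37), Atp5c1 (1.34 ± 0.37) and Atp5d (1.11 ± 0.41) of the central rotor, and Atp5b (1.19 ± 0.37) and Atp5a1 (0.998 ± 0.37) of the catalytic ring. Atp5b, the catalytic beta subunit, had 519 and 383 CPM in tetramer libraries 4 and 5, against 163 and 232 CPM in resting libraries 4 and 5 (adjusted p = 0.0192). Atp5a1, its alpha partner, had 1043 and 1201 CPM in tetramer libraries, against 612 and 512 CPM in resting libraries (adjusted p = 0.0468). The groups did not overlap for either gene. Atp5d had 620 and 226 CPM in tetramer libraries, against 164 and 229 CPM in resting libraries (adjusted p = 0.0476), and its groups overlapped. The F1 calls were sensitive to the scaling and to single libraries. With library totals Atp5a1, Atp5b and Atp5d were not called (adjusted p = 0.142, 0.0633 and 0.122), nor against a fold of 1.5 (adjusted p = 0.162, 0.0796 and 0.138). Atp5d lost its call in 8 of 12 alternatives, DESeq2 (adjusted p = 0.0638), limma-voom (adjusted p = 0.0919) and no filter (adjusted p = 0.0525) among them. Atp5a1 was not called without any 1 of the 4 libraries (adjusted p = 0.0743 to 0.225), and without tetramer library 4 the values of Atp5d, Atp5b, Atp5c1 and Atp5e were 0.22, 0.97, 1.09 and 1.09 (adjusted p = 0.853, 0.232, 0.169 and 0.170). Without resting library 4, Atp5b, Atp5c1 and Atp5d were at 0.98, 1.17 and 0.90 (adjusted p = 0.126, 0.0633 and 0.159).

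The c ring, which turns in the membrane as protons pass, is encoded by 3 genes whose mature proteins are identical, with different import sequences. Atp5g1 had 455 and 255 CPM in tetramer libraries, against 40.2 and 113 CPM in resting libraries (2.21 ± 0.44, adjusted p = 0.000570). Both tetramer libraries lay above both resting libraries, although the resting pair itself differed. Its call held in all 12 alternatives, with log2 fold changes of 1.67 to 3.17 when single libraries were left out. Atp5g3 had 1086 and 939 CPM in tetramer libraries, against 335 and 418 CPM in resting libraries (1.43 ± 0.37, adjusted p = 0.00629), a call lost without tetramer library 4 (1.34, adjusted p = 0.0735). Atp5g2 had 252 and 133 CPM in tetramer libraries, against 107 and 124 CPM in resting libraries (0.74 ± 0.38, adjusted p = 0.153). The windows of Atp5g1 and Atp5g3 printed above hold an E-box, and that of Atp5g2 holds an NRF1 core and no E-box.

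Within the counts of these 3 genes, Atp5g1 made up 25.4% and 19.2% in tetramer libraries, against 8.34% and 17.2% in resting libraries. Atp5g2 made up 14.0% and 10.0% in tetramer libraries, against 22.2% and 19.0% in resting libraries. The shares of Atp5g3 overlapped, at 60.6% and 70.7% in tetramer libraries and 69.5% and 63.8% in resting libraries. The log2 ratio of Atp5g1 to Atp5g2 was 0.90 ± 0.06 in tetramer libraries and -0.77 ± 0.90 in resting libraries (SD, n = 2 each; exact permutation p = 0.333, the smallest possible). Of the 36-base stretches of Atp5g1, 9.91% occur in annotated pseudogenes (27 of them), and of those of Atp5g2 24.8% (4 pseudogenes). Atp5g3 shares none.

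Other membrane subunits gave mixed calls. Atp5j2, subunit f, had 1137 and 1353 CPM in tetramer libraries, against 292 and 618 CPM in resting libraries (1.45 ± 0.40, adjusted p = 0.00903). Atp5k, subunit e, which with subunit g helps ATP synthase form dimers at the folds of the inner membrane, had 303 and 242 CPM in tetramer libraries, against 63.0 and 138 CPM in resting libraries (1.44 ± 0.40, adjusted p = 0.00891). For both, resting library 4 was the low library, and without it the values were 1.02 (adjusted p = 0.114) for Atp5j2 and 0.99 (adjusted p = 0.116) for Atp5k, which was also lost without tetramer library 4 (1.28, adjusted p = 0.0897). Atp5l, subunit g, had 666 and 638 CPM in tetramer libraries, against 423 and 437 CPM in resting libraries, and passed no threshold (0.60 ± 0.36, adjusted p = 0.224). The groups of Atp5l did not overlap, but 69.4% of its 36-base stretches occur in annotated pseudogenes.

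Of the peripheral stalk, which holds the head still against the rotor, 2 of 4 subunits rose. Atp5o, the OSCP subunit at the top of the stalk, had 289 and 259 CPM in tetramer libraries, against 70.0 and 89.5 CPM in resting libraries (1.78 ± 0.37, adjusted p = 0.000955). Its groups were far apart and its call held in all 12 alternatives, with the caution that 53.4% of its 36-base stretches occur in other annotated genes, Donson among them. Atp5f1, subunit b, rose by 1.13 ± 0.38 (adjusted p = 0.0283), lost without tetramer library 4 (0.70, adjusted p = 0.446) or resting library 4 (0.97, adjusted p = 0.125), with library totals (adjusted p = 0.0957) and against a fold of 1.5 (adjusted p = 0.105). Atp5h, subunit d, had 711 and 716 CPM in tetramer libraries, against 435 and 485 CPM in resting libraries (0.63 ± 0.36, adjusted p = 0.201). Annotated pseudogenes hold 43.3% of its 36-base stretches. The smallest change of ATP synthase was that of Atp5j, the F6 subunit, with 149 and 101 CPM in tetramer libraries, against 65.3 and 105 CPM in resting libraries (0.55 ± 0.38, adjusted p = 0.288). Part of Atp5j is shared with Gabpa, its neighbour.

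Of the members that encode neither a subunit nor cytochrome c, Atp5sl fell and Atp5s passed no threshold. Atp5sl, now named Dmac2 in RefSeq, had 30.1 and 27.7 CPM in tetramer libraries, against 61.9 and 74.2 CPM in resting libraries (-1.23 ± 0.41, adjusted p = 0.0252). The groups did not overlap, but the call was lost without tetramer library 4 (adjusted p = 0.184), tetramer library 5 (adjusted p = 0.167) or resting library 5 (adjusted p = 0.0814), and against a fold of 1.5 (adjusted p = 0.0856). Atp5s, a coupling factor gene now named Dmac2l, had 14 and 9 counts in tetramer libraries, against 10 and 3 counts in resting libraries, and passed no threshold (0.77 ± 0.75, adjusted p = 0.470).

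All 3 complexes had more transcripts called higher than lower. Summed levels were 2.21-fold higher in tetramer than in resting libraries for ATP synthase, 2.19-fold for complex IV and 1.80-fold for complex III. No subunit of the 3 complexes was lower at an unadjusted p below 0.05 by edgeR, DESeq2 or limma-voom. The share of all genes lower at that unadjusted threshold was not counted. Members that rose did so by a median of 2.60-fold in ATP synthase, 2.97-fold in complex IV and 2.95-fold in complex III. The medians of the log2 fold change were 1.19, 1.22 and 1.40 for ATP synthase, complex IV and complex III, and 1.09, 0.81 and 0.68 without tetramer library 4, in the opposite order. Differences between complexes were not tested, since subunits are not replicates. Without tetramer library 4 the counts that rose were 3 of 15 for ATP synthase, 3 of 10 for complex IV and 2 of 9 for complex III. Without resting library 4 they were 4, 5 and 6. Complex I, counted the same way over its structural subunits, had 14 of 36 higher (38.9%) and 0 lower, with a median of 0.76. Over all genes tested, 14.3% were higher and 12.1% lower. Complex II with its assembly factors had 1 of 6 higher (16.7%, near the 14.3% of all genes tested), Sdhb (1.40 ± 0.38, adjusted p = 0.00747), lost without tetramer library 4 (1.24, adjusted p = 0.105) or resting library 4 (1.13, adjusted p = 0.0714).

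**Figure D5:**
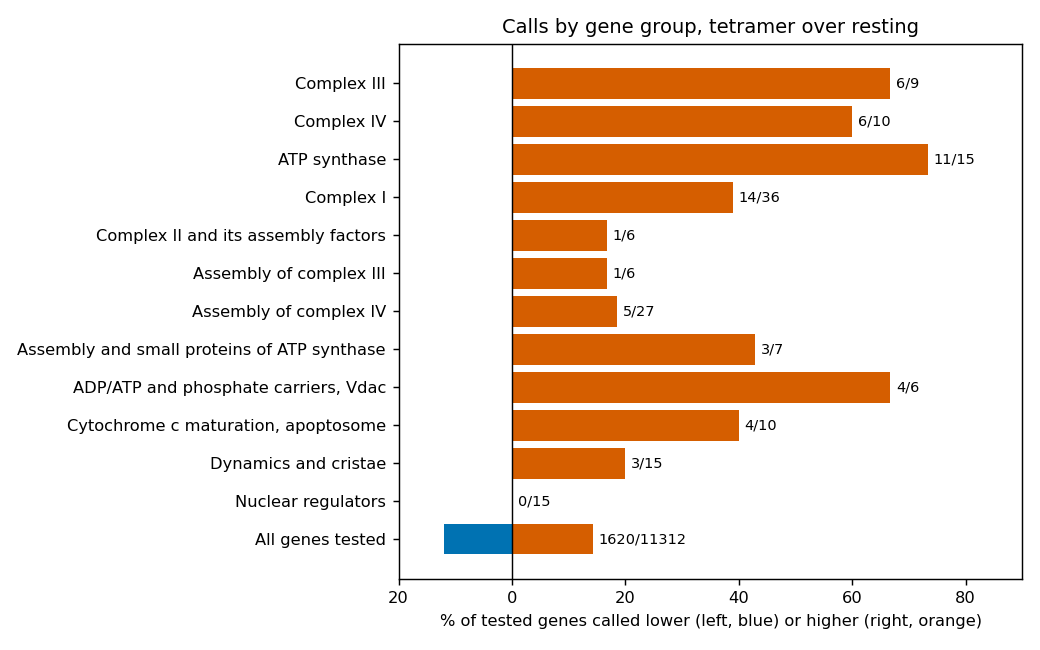
Percentage of the tested genes of each group called higher (orange, right) or lower (blue, left) in tetramer over resting libraries, with the number higher of those tested. ATP synthase, complex III and complex IV lie between 60% and 73.3% higher, against 14.3% of all genes tested.

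Shares of assembly factors that rose were near the 14.3% of all genes tested for complex III (16.7%) and complex IV (18.5%). Those counts of calls alone show nothing particular to these lists. The complex IV factors had a median log2 fold change of 0.81, against -0.06 for all genes tested. Both tetramer libraries lay above both resting libraries for 63.0% of them and for 33.3% of the complex III factors, against 31.6% of all genes tested. For complex III, 1 of 6 tested factors rose and 0 fell: Uqcc2, which binds newly made cytochrome b, had 377 and 415 CPM in tetramer libraries, against 110 and 75.9 CPM in resting libraries (2.09 ± 0.38, adjusted p = 0.000226). For complex IV, 5 of 27 rose and 0 fell. By edgeR, DESeq2 and limma-voom, 12, 10 and 12 were higher and 2 were lower by each at an unadjusted p below 0.05. The share of all genes at that unadjusted threshold was not counted, so these counts cannot be set against it. Fastkd3, an RNA-binding protein of mitochondria, had 54.0 and 25.3 CPM in tetramer libraries, against 5.59 and 3.21 CPM in resting libraries (3.16 ± 0.55, adjusted p = 0.000146). Sco2, a copper chaperone for complex IV, rose by 2.38 ± 0.55 (adjusted p = 0.00235) and Cmc2 by 2.12 ± 0.52 (adjusted p = 0.00375). Both calls were lost without tetramer library 4 (2.22, adjusted p = 0.0580 for Sco2 and 1.96, adjusted p = 0.0701 for Cmc2). Sco1, the related chaperone, had 35.0 and 37.6 CPM in tetramer libraries, against 54.7 and 92.7 CPM in resting libraries (-1.02 ± 0.41, adjusted p = 0.0627), named after its values were seen.

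For ATP synthase, 3 of 7 genes for assembly factors, the inhibitor and small attached proteins rose and 0 fell. Of all genes tested, 14.3% rose and 12.1% fell. Atpif1, the inhibitor that blocks ATP hydrolysis when the proton gradient fails, had 237 and 162 CPM in tetramer libraries, against 47.6 and 77.4 CPM in resting libraries (1.68 ± 0.39, adjusted p = 0.00239). Usmg5, a small subunit that stabilises dimers, had 317 and 157 CPM in tetramer libraries, against 67.7 and 82.5 CPM in resting libraries (1.66 ± 0.39, adjusted p = 0.00300). Neither call held without tetramer library 4 (1.40, adjusted p = 0.0626 for Atpif1 and 1.08, adjusted p = 0.181 for Usmg5). Tmem242, an assembly factor, rose by 1.64 ± 0.60 (adjusted p = 0.0421), a call lost without tetramer library 4 (1.33, adjusted p = 0.381), tetramer library 5 (1.91, adjusted p = 0.0897) or resting library 4 (1.21, adjusted p = 0.147), with library totals (adjusted p = 0.0794) and against a fold of 1.5 (adjusted p = 0.0907).

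Carriers that exchange ATP for ADP and admit phosphate, with the outer membrane channels, rose in 4 of 6 cases. Of all genes tested, 14.3% rose. The channel gene Vdac1 had 74.9 and 42.5 CPM in tetramer libraries, against 10.4 and 12.2 CPM in resting libraries (2.38 ± 0.46, adjusted p = 0.000469). The ADP/ATP carriers Slc25a5 and Slc25a4 rose by 1.74 ± 0.42 (adjusted p = 0.00346) and 1.46 ± 0.39 (adjusted p = 0.00702). Slc25a5 was not called without tetramer library 4 (0.89, adjusted p = 0.302), nor Slc25a4 without resting library 4 (1.06, adjusted p = 0.0921). Of 15 genes of mitochondrial dynamics and inner membrane folds, 3 (20%, near the 14.3% of all genes tested) rose and 0 fell by edgeR. DESeq2 called 4 higher and 1 lower. By edgeR, DESeq2 and limma-voom, 6, 6 and 7 were higher and 1 was lower by each at an unadjusted p below 0.05. All genes tested were not counted at that unadjusted threshold. The 3 that rose were Minos1 (2.01 ± 0.40), a part of the complex at cristae junctions, and the prohibitins Phb (1.85 ± 0.43) and Phb2 (1.66 ± 0.41). Without tetramer library 4 their values were 1.39, 1.31 and 1.27 (adjusted p = 0.0805, 0.110 and 0.117).

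Of 15 tested nuclear regulators of mitochondrial genes 0 passed the threshold in either direction by edgeR, DESeq2 or limma-voom. By edgeR, 14.3% of all genes tested were higher and 12.1% lower. At an unadjusted p below 0.05, 0 regulators were higher and 2 lower by each test, a threshold not counted over all genes. The median log2 fold change of the regulators was 0.14, against -0.06 for all genes tested. Nrf1 had 12.7 and 14.4 CPM in tetramer libraries, against 16.2 and 14.7 CPM in resting libraries (-0.19 ± 0.51, adjusted p = 0.811), and Gabpa had 14.9 and 13.6 CPM, against 10.8 and 8.33 CPM (0.57 ± 0.54, adjusted p = 0.449). These were named after their values were seen. The smallest p belonged to Ncor1, a corepressor, with 364 and 458 CPM in tetramer libraries, against 949 and 636 CPM in resting libraries (-0.95 ± 0.38, adjusted p = 0.0612). Ncor1 was called lower without resting library 5 (-1.19, adjusted p = 0.0409) and with library totals (-1.25, adjusted p = 0.0119).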

How the data were processed

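Poly(A) RNA libraries of 4 samples were compared, 2 tetramer and 2 resting. The authors deposited 1 table of whole-number counts per gene; per the submitters' processing notes, Bowtie2, DESeq2 and the mouse build mm9 were used, while their versions, the counter and any use of strand have no source here. Per the labels' protocols, cDNA was amplified by 23 PCR cycles, and duplicates of a molecule cannot be told apart in such counts. Column names give the group but not the replicate of the titles. 1 gene, Tmem138, had an unreadable cell and was left out, which left 12020 genes; 18 symbols look like dates.

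Counts were filtered by expression (11312 genes kept), scaled by TMM and tested by the quasi-likelihood F test of edgeR (4.0.16, run in R 4.3.3), with Benjamini-Hochberg adjustment over all genes and a threshold of 0.05. Standard errors are the log2 fold change over the root of F. The procedure was tested on simulated data. Named in full were, per complex, the members with the largest called changes and the smallest change, the members that fell, and paralogs; of other lists, up to 3 called genes. Members and lists were chosen with earlier results of these data known. DESeq2 1.42.0, limma-voom 3.58.1, other scalings and filters, and leaving out each library were alternatives. Replicates of a group differed by more than sampling noise (chi-square per degree of freedom 28.0 for tetramer and 30.9 for resting). Promoter windows come from RefSeq (GRCm38.p6) and shared stretches from GENCODE transcripts, so no coordinates of mm9 are given. Levels are not divided by length. Shares of counts and log2 ratios between genes serve to compare libraries, and they are not proportions of transcripts.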

Additional observations from a re-analysis of the deposited data

How the results depend on the processing

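Over the 38 members, 24 were higher and 2 lower with all libraries. Leaving out 1 library gave 9 to 23 higher and 0 to 2 lower, and 2 to 6, 3 to 6 and 3 to 10 higher subunits in complex III, complex IV and ATP synthase, against 6, 6 and 11 with all; 9, 0, 2, 3 and 3 were the counts without tetramer library 4. With library totals 18 members and 7 ATP synthase subunits were higher, and against a fold of 1.5 also 18 and 7, with 0 members lower. Uqcrc2 and Uqcrh reversed with library totals, to -0.051 and -0.20 (adjusted p = 0.933 and 0.721). The cause was not tested, though library totals moved the median of all genes to -0.35. DESeq2's test gave 23 higher and limma-voom 22, with 2 lower in each. Of the 26 called members, 8 kept their call in all 12 alternatives: Cycs, Uqcr10, Uqcr11, Cox5a, Cox5b, Cox7a2, Atp5g1 and Atp5o. Whether the column numbers 4 and 5 pair the samples is not stated in the labels. The deviations of same-numbered libraries from their group means correlated at 0.04 over genes. This cannot settle the question, since paired samples with little shared scatter would give such a value too. With the replicate block by number 19 members were higher and 2 lower, 5, 5 and 8 of them higher in complex III, complex IV and ATP synthase. Among the subunits, changes of up to 1.87-fold passed no threshold at the spread between 2 libraries a group. The largest was that of Cox6a1, with 1306 or more counts in each library. Larger changes in other lists also missed the threshold, such as 3.51-fold for Hccs (6 to 34 counts a library) and 2.31-fold for Cox17 (28 to 148). Atp5s rests on 3 to 14 counts a library.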
